A study of Tachysurus vachellii with 6 samples.

Results

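The genes described here are those that the annotation of the yellow catfish gill transcriptome names as interferon-induced, interferon-inducible or interferon-stimulated, or as interferon regulatory factors, together with rsad2 and dhx58, which were taken by symbol. Of the 28288 genes in the deposited table, 119 carried such a name, and 87 of these had at least 1 FPKM (fragments scaled to transcript length and library total) in 3 or more of the 6 libraries. These 87 genes, among 15312 genes that passed the same filter, were compared between low and ordinary oxygen. No row carried the symbols isg15, rigi or ddx58, so these genes were not analysed here. Of the 32 rows under the filter, 15 were interferon-induced protein 44-like, 6 very large GTPase-like, 3 Mx, 3 transfer RNA rows with such a description, 2 inducible GTPase 5-like, and 1 each of the factor 4-like, tetratricopeptide repeat-like and transmembrane protein-like kinds. Among the 87 genes, 65 reached 1 FPKM in all 6 libraries, 2 passed only through normoxia and 1 only through hypoxia.

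The fish were hybrids (Tachysurus fulvidraco female, Pseudobagrus vachellii male), kept at 28 °C, acclimated for a week and fasted before the trial. Dissolved oxygen was then set to 1.5 mg/L for the hypoxia group and to 6.5 mg/L for the controls (normoxia), and gills were taken at 96 h. RNA from the gills of 9 fish per group was mixed in sets of 3 fish, which gave 3 libraries per group. Each library is therefore a pool, and errors here are those among pools rather than among fish.

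Interferons are secreted proteins that cells release when they sense viral nucleic acid. RNA helicases of the RIG-I family, among them MDA5 and LGP2, detect double-stranded RNA, and interferon regulatory factors (IRFs) switch on the interferon genes and the genes that interferon in turn induces. The induced proteins block virus entry, trap viral particles, stop translation or help to present antigen, and in teleost fishes several of their families form large tandem arrays of similar copies. The gill, a thin epithelium with much lymphoid tissue in contact with the water, is a common entry site for fish viruses.

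Library totals ran from 44762764 to 55016223 counts, and the 87 genes held 0.327% to 0.338% of the counts in normoxia and 0.239% to 0.277% in hypoxia. Markers of the labelled tissue were present: 18 gill epithelium genes (of 32 matched) and 11 ionocyte genes (of 13 matched, with foxi3 at 0) passed the filter, with sums of 4196 to 6714 and 442 to 817 FPKM per library. Differences are given as log2 of hypoxia over normoxia after TMM scaling, which sets the centre of most genes near 0. With library totals in its place the median over all genes moved from -0.04 to -0.20, and the split of calls moved from 825 higher and 636 lower to 364 higher and 812 lower. On the deposited log2(FPKM + 1), tested with limma, it was 479 higher and 887 lower. FPKM are printed as deposited, without TMM scaling, so the ratio of the FPKM in the groups lies below the fitted difference. Means are given ± SD and log2 differences ± SE, with n = 3 libraries per group throughout.

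Few of the interferon genes passed the test, and most of their differences pointed down. With the quasi-likelihood test of edgeR and Benjamini-Hochberg adjustment over all 15312 genes, 3 of the 87 were lower and 2 higher in hypoxia at an adjusted p under 0.05. Of the higher genes 1, LOC113650707, passed the filter only through hypoxia and so had to differ. This is 5.75% of them, against 9.54% of all genes tested (4.15% lower and 5.39% higher). The median log2 difference was -0.26, with 61 of 87 genes below 0, while the median of all genes was -0.04 with 52.9% below 0. At an unadjusted p under 0.05 there were 18 genes lower and 6 higher, or 20.7% and 6.90%, where all genes gave 15% and 15.3%. FPKM of the groups did not overlap in 26 genes with hypoxia lower and in 3 with hypoxia higher. These are 29.9% and 3.45% of the 87, against 25.9% and 11.4% of all genes. The share was thus near that of all genes on the lower side and under it on the higher side. After division by the TMM factor the counts were 18 and 5 of the 87 genes, where all genes gave 17.6% and 19.6%. The sensor gene ifih1 was the called gene outside the protein 44-like family.

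**Figure D1:**
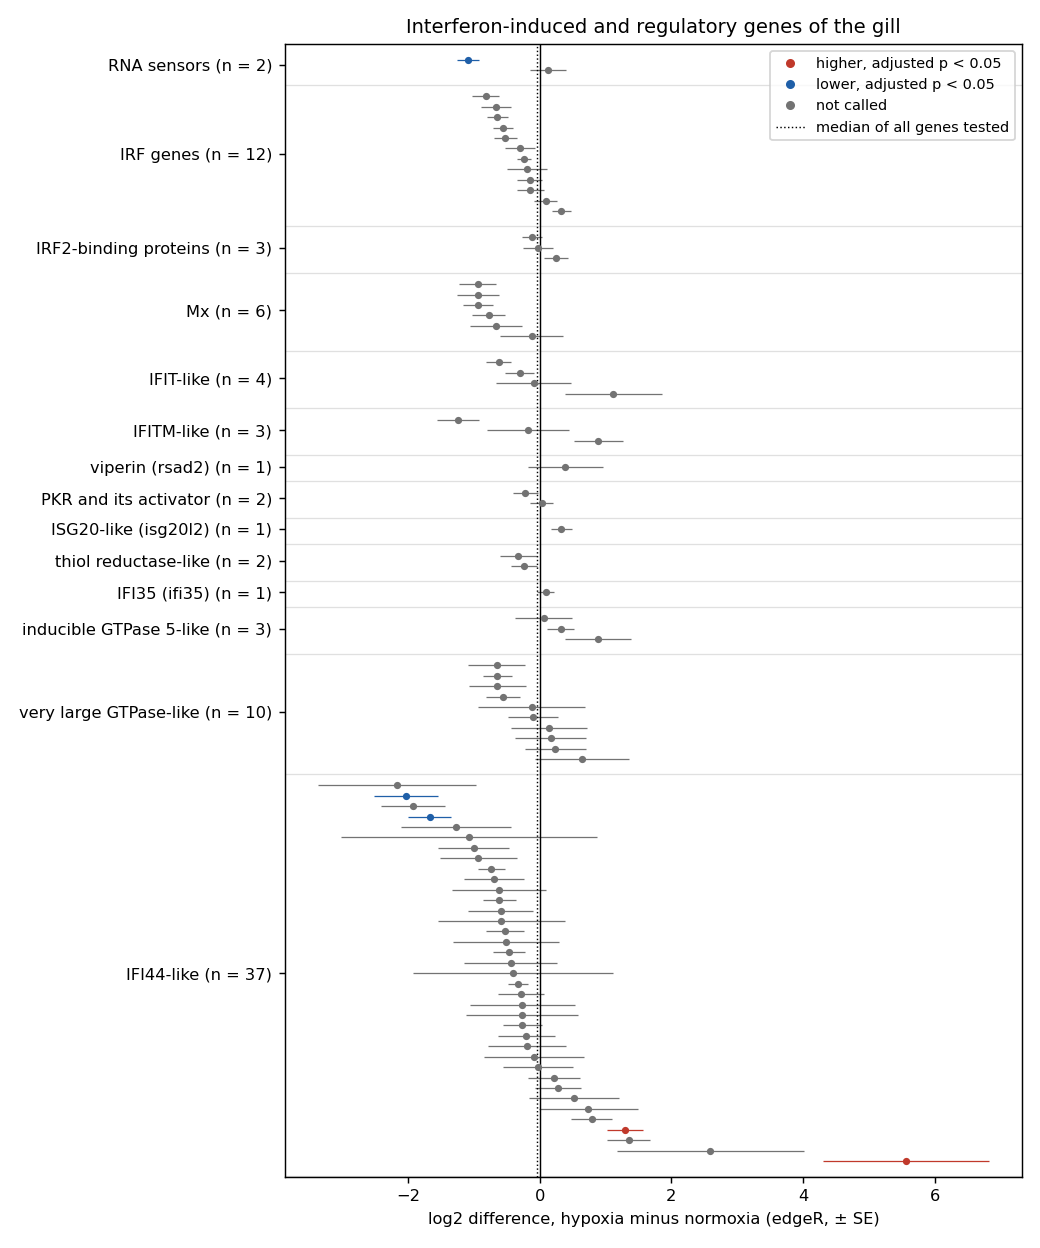
Log2 difference between hypoxia and normoxia (x axis, edgeR with TMM scaling, bars ± SE) for each of the 87 genes, grouped by role along the y axis and sorted within a role. Blue and red points passed the adjusted p threshold, and the dotted line marks the median of all genes tested, at -0.04. The 6 Mx genes lie below 0, while the 37 protein 44-like genes spread from -2.16 to 5.56 with the widest bars.

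The interferon genes also varied more between pools than most genes. The median SE was 0.35, against 0.21 over all genes, and the median spread within a group was an SD of 0.46 against 0.25 on the log2 scale. The excess was uneven, with 0.53 and 0.74 for the 37 protein 44-like genes. For the other 50 members the values were 0.24 and 0.35, nearer to those of all genes. Relative to the normoxia mean, the median over the 87 genes was 0.04, -0.08 and 0.06 in normoxia 1, 2 and 3, and -0.00, -0.43 and -0.40 in hypoxia 1, 2 and 3. On this median, taken after TMM scaling, the hypoxia 1 library lay with the normoxia libraries, apart from the other hypoxia pools. The share of counts held by the 87 genes, which is not so scaled, placed it nearer the hypoxia pools. That share was 0.28% in hypoxia 1, against 0.24% and 0.26% in hypoxia 2 and 3 and 0.33% to 0.34% in normoxia. Without hypoxia 1 the median difference was -0.43, with 63 of 87 below 0, and 2 genes were called, both lower. Without hypoxia 2 the median was -0.18 and none of the 87 genes was called by edgeR, as was also so without normoxia 3. Without normoxia 2 the only call was LOC113648839, which was not called with all libraries. Calls over all genes fell too, from 9.54% to 1.64% without hypoxia 1 and 1.56% without hypoxia 2. They were 0.862% and 1.18% without normoxia 2 and normoxia 3.

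Of the RNA sensors, ifih1 fell. The gene encodes MDA5, which recognises long double-stranded RNA and signals through the adaptor MAVS, and lies on scaffold NW_020847958.1 at 3371594 to 3389840, with coordinates as the deposited table gives them. Its level was 9.98, 12.3 and 14.4 FPKM in normoxia and 5.34, 4.52 and 5.40 FPKM in hypoxia. Every hypoxia library lay below every normoxia library. The log2 difference was -1.09 ± 0.17, a 2.14-fold fall with an edgeR adjusted p of 0.0198. The call ended without hypoxia 2 (edgeR adjusted p = 0.0651), normoxia 2 (0.0714) or normoxia 3 (0.0627), while the difference stayed between -1.20 and -0.97 over the 6 fits that left out 1 library.

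The other sensor, dhx58, gave no difference that passed. It encodes LGP2, a helicase without a signalling domain that tunes the output of MDA5 and RIG-I. Levels were 15.8, 11.1 and 17.1 FPKM in normoxia and 18.4, 10.7 and 13.6 FPKM in hypoxia, so the groups overlapped almost fully. The log2 difference was 0.13 ± 0.27 (edgeR adjusted p = 0.777), and it turned to -0.05 with library totals and with limma on FPKM.

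The 12 IRF genes held no call in the edgeR fit described above. At an unadjusted p under 0.05, 5 of them were lower and 1 higher, or 41.7% and 8.33%, against 15% and 15.3% of all genes. The levels of irf1, known as an activator of the interferon-beta promoter, had the highest mean over the 6 libraries among the 87 genes, at 289, 224 and 298 FPKM in normoxia and 235, 223 and 193 FPKM in hypoxia. Its log2 difference of -0.15 ± 0.19 (edgeR adjusted p = 0.656) was smaller than its error. For irf2, which in mammals competes with IRF1 for the same DNA element, the levels were 25.8, 26.7 and 28.6 FPKM in normoxia and 12.3, 18.1 and 19.2 FPKM in hypoxia. The groups were separate and the normoxia values lay close together, yet the log2 difference of -0.56 ± 0.15 missed the threshold (edgeR adjusted p = 0.0591). A second gene described as factor 2-like, LOC113649312, had 3.0, 5.98 and 2.79 FPKM in normoxia and 3.13, 3.0 and 3.07 FPKM in hypoxia. Only normoxia 2 stood apart there, and its difference of -0.19 ± 0.30 turned to 0.24 without that library.

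Factor 4 and factor 8 are the IRFs of lymphocytes, dendritic cells and macrophages. All 3 tested genes described as factor 4-like had separate groups on FPKM with hypoxia lower, as did 25.9% of all genes. Another, LOC113662362, fell under the filter, at 0.425, 0.793 and 0.577 FPKM in normoxia and 1.96, 0.343 and 0.853 FPKM in hypoxia. LOC113650723 had 11.5, 10.1 and 9.78 FPKM in normoxia and 4.77, 4.08 and 7.25 FPKM in hypoxia. LOC113662310 had 24.4, 24.0 and 17.8 FPKM in normoxia and 12.1, 12.6 and 13.6 FPKM in hypoxia. LOC113634347, which overlaps exoc2, had 10.5, 10.3 and 7.73 FPKM in normoxia and 5.26, 6.41 and 6.20 FPKM in hypoxia. In each of the 3 tested genes the lowest normoxia pool stayed above the highest hypoxia pool. Their log2 differences were -0.82 ± 0.20, -0.64 ± 0.16 and -0.52 ± 0.17, with edgeR adjusted p of 0.0504, 0.0509 and 0.09. Since the reads of similar genes can be split between copies, the counts of genes with the same description were also summed before the fit. Summed, the 3 tested factor 4-like genes fell from 42.1 ± 5.96 to 24.1 ± 2.65 FPKM, a log2 difference of -0.64 ± 0.15 with an edgeR adjusted p of 0.043. That call ended without any 1 of the 6 libraries, where the adjusted p was 0.0607 to 0.13.

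The irf8 gene had 44.4, 27.1 and 40.4 FPKM in normoxia and 23.6, 18.2 and 21.2 FPKM in hypoxia. The groups were separate on FPKM, although normoxia 2 lay nearer to the hypoxia pools than to the other normoxia pools. The log2 difference of irf8 was -0.66 ± 0.23 (edgeR adjusted p = 0.105). Of the 12 IRF genes, 6 had separate groups on FPKM with hypoxia lower, or 50%, against 25.9% of all genes. After division by the TMM factor 5 of the 6 stayed separate, and irf8 did not, where all genes gave 17.6%. That scaling also left 1 IRF gene separate with hypoxia higher, where all genes gave 19.6%.

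The IRFs that carry the signal from sensors and from the interferon receptor showed small differences. The factor 3-like gene LOC113653598 and irf7, whose products are switched on by the kinase TBK1 and induce the interferon genes, had log2 differences of -0.14 ± 0.20 and -0.30 ± 0.23. Levels of irf7 were 13.5, 11.5 and 17.9 FPKM in normoxia and 12.1, 8.65 and 10.2 FPKM in hypoxia, and the gene overlaps phrf1. The IRF9 gene LOC113662183, whose product is the DNA-binding part of the complex that turns on interferon-induced genes, was at 74.3, 63.1 and 73.4 FPKM in normoxia and 74.6, 62.4 and 63.2 FPKM in hypoxia. These values overlapped throughout, and the difference of 0.09 ± 0.17 turned to -0.09 with library totals.

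Levels of irf5, a factor downstream of Toll-like receptors, were 18.9, 18.2 and 19.8 FPKM in normoxia and 12.7, 14.8 and 15.7 FPKM in hypoxia. The FPKM groups were separate, also after division by the TMM factor, yet the log2 difference of -0.24 ± 0.11 did not pass (edgeR adjusted p = 0.184). Of the 3 genes for proteins that bind factor 2, irf2bp2 was at 86.3 ± 4.29 FPKM in normoxia and 90.9 ± 12.2 FPKM in hypoxia. Differences of irf2bp2, irf2bpl and LOC113638821 were 0.25, -0.12 and -0.02, with edgeR adjusted p of 0.394 to 0.961, and that of LOC113638821 turned to 0.09 with the length correction.

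**Figure D2:**
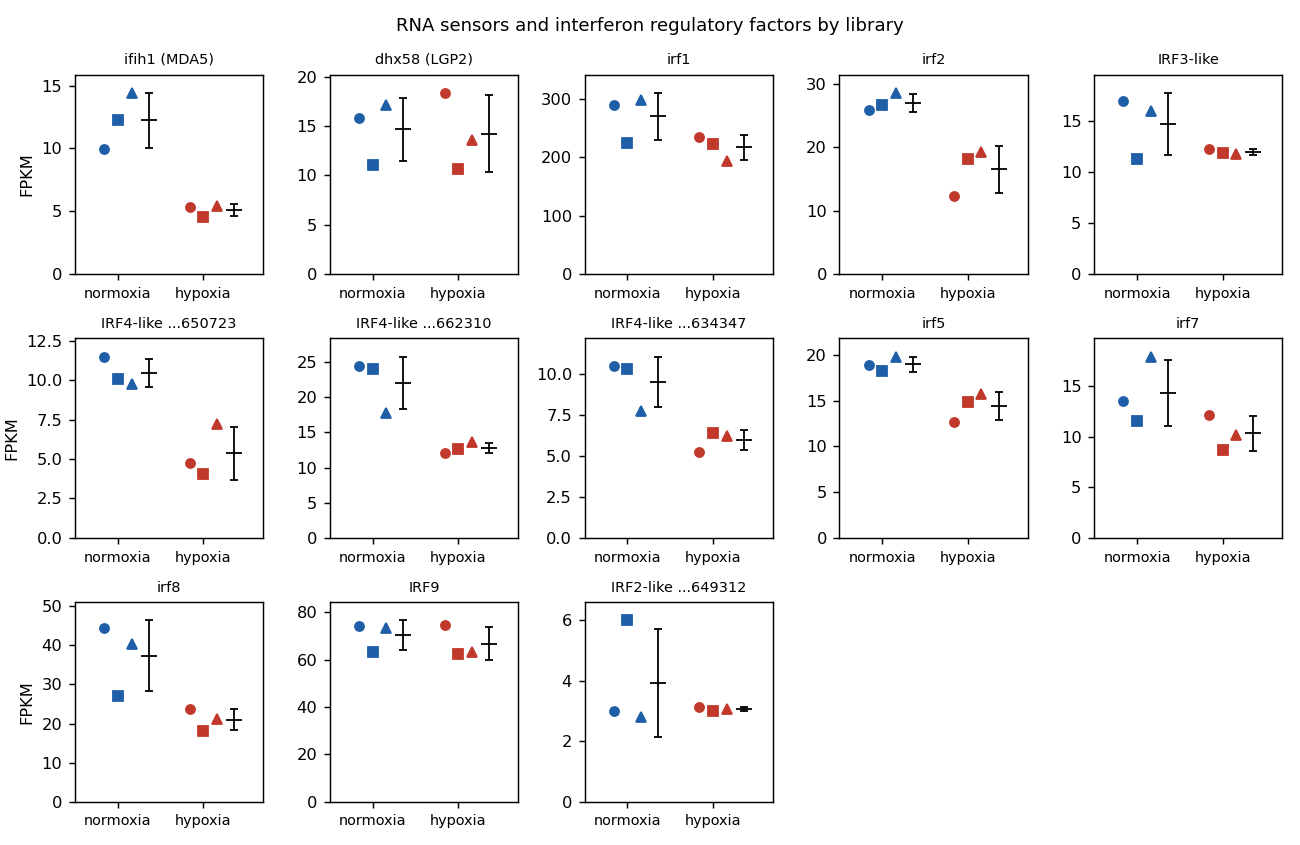
FPKM (y axes, each from 0) of 2 RNA sensor genes and 11 IRF genes in the 3 normoxia libraries (blue) and the 3 hypoxia libraries (red). Circles, squares and triangles are replicates 1, 2 and 3, and the black marks give mean ± SD. The groups are separate for ifih1, irf2, irf5, irf8 and the 3 factor 4-like genes, and overlap for the other panels.

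The factor 4-like and irf8 differences stood beside differences in leukocyte markers. All 15 B cell markers tested (of 39 matched, 2 of which had no count in any library) were below 0, and cd79a, a chain of the B cell receptor complex, fell by 1.49 on the log2 scale (edgeR adjusted p = 0.0352). Their summed level was 43.2 to 82.5 FPKM in normoxia and 23.5 to 35.6 FPKM in hypoxia. Of 19 T and NK cell markers tested, 16 were below 0 and il2rb was called lower, with sums of 256 to 303 FPKM in normoxia and 189 to 200 FPKM in hypoxia. Of 9 dendritic cell markers, 7 were below 0 and the FLT3 gene was called lower, with sums of 261 to 311 and 230 to 251 FPKM. Macrophage markers were mixed, with 6 of 11 below 0 and 2 called lower (spi1 and a macrophage-expressed gene 1-like gene), and sums of 551 to 681 and 551 to 597 FPKM. Of 10 neutrophil markers, 5 were below 0 and myeloperoxidase was called lower, with sums of 301 to 339 and 216 to 370 FPKM. The shares called were 6.67% of B cell, 5.26% of T and NK cell and 11.1% of dendritic cell markers. They were 18.2% of macrophage and 10% of neutrophil markers, against 9.54% of all genes. None of these markers was called higher, although differences reached 1.22 in the macrophage list and 1.15 in the neutrophil list. Of all genes, 52.9% were below 0. The 7 markers of all leukocytes summed to 686 to 872 FPKM in normoxia and 606 to 710 FPKM in hypoxia, with none called by edgeR and 1 at an unadjusted p under 0.05. In bulk tissue, fewer cells of a type and less RNA per cell cannot be told apart, and the part of these cells in the IRF differences was not tested.

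Among the antiviral effectors, the Mx genes all had differences below 0, without a call in the edgeR fit described above. Mx proteins are dynamin-like GTPases that trap viral nucleocapsids. The median log2 difference of the 6 genes tested was -0.85, with 6 of 6 below 0 and none called in that fit. At an unadjusted p under 0.05, 4 were lower, as were 15% of all genes. Of the 6, 5 lie on scaffold NW_020847857.1, and all 5 had separate groups on FPKM with hypoxia lower, as did 25.9% of all genes. After division by the TMM factor this held for 3 of them and for 17.6% of all genes. The Mx3-like gene LOC113648839, at 5298115 to 5306498, had 47.5, 28.5 and 49.0 FPKM in normoxia and 20.8, 17.9 and 20.1 FPKM in hypoxia. Its neighbour LOC113648840, at 5308410 to 5314096, had 11.2, 6.72 and 11.6 FPKM in normoxia and 5.63, 4.28 and 5.55 FPKM in hypoxia. In both genes normoxia 2 was the lowest control pool, and the hypoxia pools lay close together.

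LOC113648748, the other Mx3-like gene that was tested, had 6.08, 9.52 and 7.47 FPKM in normoxia and 2.57, 4.90 and 3.23 FPKM in hypoxia, with its highest level in normoxia 2. The 3 genes had log2 differences of -0.93 ± 0.23, -0.77 ± 0.25 and -0.94 ± 0.28, and edgeR adjusted p of 0.052, 0.0954 and 0.0738 in this order. In alternative edgeR fits LOC113648839 was called with library totals (adjusted p = 0.0352), at a mean of at least 5 FPKM (0.0332) and without normoxia 2 (0.0439). In the remaining edgeR fits it was not called (0.0568 to 0.137). With DESeq2 the 3 genes had adjusted p of 0.00371, 0.0446 and 0.0164. Summed in the edgeR fit, the results were as follows. The 3 genes together fell from 59.2 ± 12.6 to 28.3 ± 1.11 FPKM, a log2 difference of -0.90 ± 0.18 with an edgeR adjusted p of 0.0343. The call of the sum held without normoxia 2 (adjusted p = 0.0422), and ended without normoxia 1 (0.0714), normoxia 3 (0.0965), hypoxia 1 (0.0701), hypoxia 2 (0.0974) or hypoxia 3 (0.0777). LOC113648839 overlaps another gene on its scaffold, and no source used here gives the strand setting of the counts.

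Both genes described as Mx1 were also lower on FPKM. LOC113648812 had 25.2, 32.6 and 32.4 FPKM in normoxia and 25.2, 8.33 and 16.5 FPKM in hypoxia, where hypoxia 1 equalled the lowest normoxia pool to 3 digits. LOC113648971 had 3.93, 6.43 and 5.47 FPKM in normoxia and 3.23, 1.68 and 2.40 FPKM in hypoxia. Their log2 differences were -0.66 ± 0.39 and -0.93 ± 0.32, neither of them called. The Mx-like gene on another scaffold, LOC113639950, behaved differently between pools, with 9.21, 6.36 and 15.7 FPKM in normoxia and 13.6, 5.18 and 6.35 FPKM in hypoxia. Its highest values were in normoxia 3 and hypoxia 1, and its difference was -0.12 ± 0.48.

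The same pools stood out for rsad2. The gene encodes viperin, an enzyme that makes a nucleotide which ends viral RNA chains. Levels were 14, 7.94 and 19.9 FPKM in normoxia and 29.1, 8.74 and 9.54 FPKM in hypoxia. The highest pool was hypoxia 1 and the next highest normoxia 3, with the remaining hypoxia pools near the lowest control. The log2 difference of 0.39 ± 0.57 (edgeR adjusted p = 0.687) turned to -0.51 without hypoxia 1. Skeletal muscle markers, 7 genes with none called by edgeR and none at an unadjusted p under 0.05, also summed highest in these pools, at 336 FPKM in hypoxia 1 and 286 FPKM in normoxia 3. They summed to 1.18 and 133 FPKM in normoxia 1 and 2, and to 56.8 and 7.23 FPKM in hypoxia 2 and 3. Normoxia 2, the next highest for these markers, was the lowest for rsad2. This list was set beside rsad2 after the values were seen, and the part of muscle in the pattern was not tested. The IFIT5-like gene LOC113639976, with 4.91 FPKM in normoxia 3 and 3.62 FPKM in hypoxia 1 against 1.41 to 2.01 FPKM in the other 4 libraries, was highest in these pools too, with normoxia 3 first. None of the 3 genes passed the test, and the likeness of rsad2, LOC113639950 and LOC113639976 was noted after their values were seen.

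IFIT proteins bind foreign RNA and block its translation in mammals. Of the 4 IFIT-like genes, 2 lie together on scaffold NW_020848090.1, and both had separate groups on FPKM with hypoxia lower, as did 25.9% of all genes. After division by the TMM factor this held for 1 of them, LOC113662499, and for 17.6% of all genes. LOC113662499 had 6.61, 7.21 and 8.12 FPKM in normoxia and 4.68, 4.07 and 3.90 FPKM in hypoxia, a log2 difference of -0.62 ± 0.19 (edgeR adjusted p = 0.0819). LOC113662643 had 5.26 ± 0.646 FPKM in normoxia and 3.79 ± 0.354 FPKM in hypoxia, a difference of -0.30 ± 0.22. LOC113637090 pointed the other way, at 1.12 ± 0.74, from levels of 0.435, 0.454 and 2.78 FPKM in normoxia and 1.9, 2.03 and 3.28 FPKM in hypoxia. The groups overlapped and the difference missed the threshold (edgeR adjusted p = 0.344). Without normoxia 3 it was 2.55 (edgeR adjusted p = 0.0516).

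IFITM proteins sit in membranes and hinder virus fusion. A pair of genes described as transmembrane protein 1-like, both on scaffold NW_020847956.1, had differences of opposite sign, neither of them called. LOC113653917, at 407696 to 410792, had 12.6, 25.5 and 12.8 FPKM in normoxia and 6.02, 7.73 and 5.36 FPKM in hypoxia. LOC113653916, at 391505 to 394915, had 43.0, 37.2 and 61.8 FPKM in normoxia and 113, 45.8 and 72.5 FPKM in hypoxia. The groups were separate for LOC113653917, with normoxia 2 highest, and overlapped for LOC113653916, with hypoxia 1 highest. Log2 differences were -1.24 ± 0.32 (edgeR adjusted p = 0.0547) and 0.89 ± 0.37 (edgeR adjusted p = 0.159), and the 2 genes summed to 0.08 ± 0.28. Without hypoxia 1 the difference of LOC113653916 was 0.41. The transmembrane protein 3-like gene LOC113653919 lay near the filter, at 1.23 ± 0.605 FPKM in normoxia and 0.947 ± 0.423 FPKM in hypoxia.

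**Figure D3:**
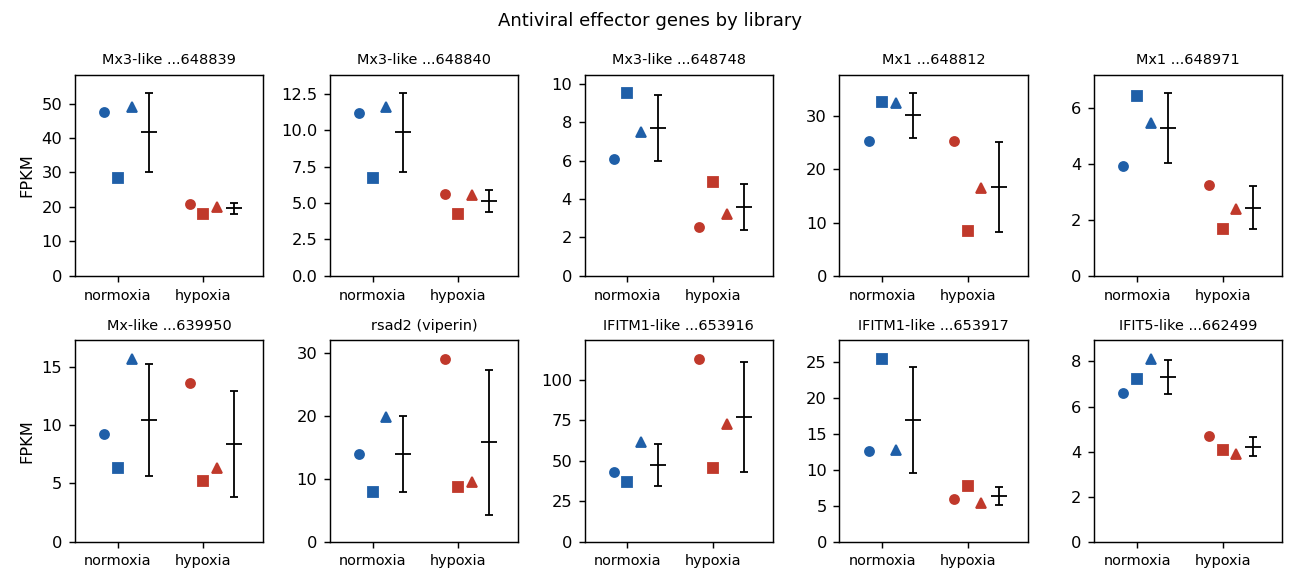
FPKM (y axes, each from 0) of 10 antiviral effector genes in the normoxia (blue) and hypoxia (red) libraries. Circles, squares and triangles are replicates 1, 2 and 3, and black marks give mean ± SD. The groups overlap for rsad2, Mx-like LOC113639950 and IFITM1-like LOC113653916, and lie apart or touch in the other panels; rsad2 and LOC113639950 are highest in hypoxia replicate 1 and normoxia replicate 3.

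Effectors that act on translation, RNA and antigen differed little. The eif2ak2 gene encodes PKR, the kinase that stops translation when it binds double-stranded RNA, and its levels were 5.59, 7.09 and 8.19 FPKM in normoxia and 5.77, 4.46 and 5.74 FPKM in hypoxia. Its groups overlapped and the log2 difference was -0.22 ± 0.19. For prkra, the gene of the PKR activator PACT, the difference was 0.03 ± 0.18, and it turned to -0.15 with library totals. The ifi35 gene was steady, at 80.3 ± 3.33 FPKM in normoxia and 76.1 ± 2.99 FPKM in hypoxia, and its difference of 0.09 ± 0.13 turned to -0.09 with library totals. The exonuclease gene isg20l2, named for its likeness to ISG20, had a difference of 0.33 ± 0.16 (edgeR adjusted p = 0.223).

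Gamma-interferon-inducible lysosomal thiol reductase opens disulfide bonds of antigens in the lysosome. LOC113649106, the more abundant of its 2 neighbouring genes, had 212, 208 and 184 FPKM in normoxia and 164, 167 and 123 FPKM in hypoxia. On FPKM the groups were separate, but they were not after division by the TMM factor, and the log2 difference was -0.24 ± 0.20 (edgeR adjusted p = 0.461). LOC113649107 had 33.5 ± 7.33 FPKM in normoxia and 23.8 ± 5.34 FPKM in hypoxia with overlapping groups.

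The GTPase families beside Mx were not called either. The 3 inducible GTPase 5-like genes had log2 differences of 0.06 to 0.89, of which LOC113661075, at 0.06 ± 0.43, turned to -0.10 with library totals. LOC113647382 had 4.82, 6.53 and 1.72 FPKM in normoxia and 4.37, 7.19 and 10.6 FPKM in hypoxia, with 0.89 ± 0.50. Its lowest and highest values were normoxia 3 and hypoxia 3, and the other 4 libraries overlapped. Of 10 very large GTPase-like genes, 6 were below 0 and 4 above, with a median of -0.11. The smallest p was that of LOC113664070, with 3.85, 4.92 and 5.35 FPKM in normoxia and 2.05, 2.34 and 3.86 FPKM in hypoxia (-0.64 ± 0.22, edgeR adjusted p = 0.106). LOC113654694, the most abundant, and LOC113663293 had -0.55 ± 0.26 and -0.65 ± 0.43. The neighbours LOC113658992 and LOC113658993 both reached their highest level in hypoxia 3, at 4.93 and 7.84 FPKM, against at most 3.06 FPKM in any other library. Summed, the 10 genes gave a difference of -0.27 ± 0.23.

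The interferon-induced protein 44-like genes (IFI44-like) were the largest family and held 4 of the 5 calls, 2 in each direction. Of the 2 higher, 1 (LOC113650707) passed the filter only through hypoxia. The calls are 10.8% of the 37 genes tested, near the 9.54% of all genes. At an unadjusted p under 0.05, 13.5% were lower and 10.8% higher, against 15% and 15.3% of all genes. IFI44 is a cytoplasmic protein induced by type I interferon whose action is little known, and fishes carry many copies of its gene. Of 52 IFI44-like rows 37 were tested, on 12 scaffolds, and their median log2 difference was -0.40 with 28 below 0. Spread within a group was large, with a median SD of 0.74 on the log2 scale. LOC113637347, on scaffold NW_020848238.1 at 172368 to 174651, had 5.87, 5.03 and 6.01 FPKM in normoxia and 0.984, 2.01 and 1.79 FPKM in hypoxia. LOC113650706, on scaffold NW_020847895.1 at 90431 to 94453, had 49.5, 47.8 and 40.5 FPKM in normoxia and 3.10, 11.7 and 16.4 FPKM in hypoxia. Normoxia pools lay close together for both genes, and every hypoxia pool was below them. LOC113637347 fell 3.19-fold (-1.67 ± 0.32, edgeR adjusted p = 0.0309) and LOC113650706 fell 4.08-fold (-2.03 ± 0.49, edgeR adjusted p = 0.0478).

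LOC113661835, on scaffold NW_020848078.1 at 691416 to 693555, rose from 2.27, 2.76 and 4.09 FPKM in normoxia to 6.28, 5.87 and 7.99 FPKM in hypoxia. The difference was 1.30 ± 0.27 (edgeR adjusted p = 0.0358). The other gene called higher is given as a description, because it passed the filter only through hypoxia. LOC113650707, on scaffold NW_020847895.1 at 51087 to 55108, had counts of 7, 0 and 0 in normoxia and 80, 52 and 184 in hypoxia, or 5.77, 3.15 and 11.0 FPKM in hypoxia. It was called higher with an edgeR adjusted p of 0.0424, and its fitted log2 difference, 5.56 ± 1.26, depends on the prior count because so few counts were seen in normoxia. Each of the 4 IFI44-like calls was sensitive to single libraries. The adjusted p of LOC113637347 was 0.0608 to 0.0931 and that of LOC113661835 was 0.0553 to 0.117 with any 1 library left out. LOC113650706 passed only without hypoxia 1 (adjusted p = 0.03, and 0.0628 to 0.129 without each of the others), and LOC113650707 only without normoxia 1 (0.04, and 0.0826 to 0.118 without each of the others).

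On NW_020847895.1, where 5 IFI44-like genes span 90.6 kb, 2 differences were below 0 and 3 above. LOC113650706 fell, while no gene there that passed the filter in both groups was called higher in the edgeR fit described above. LOC113650693, with 1.53, 2.53 and 3.20 FPKM in normoxia and 4.75, 5.09 and 6.79 FPKM in hypoxia, had a log2 difference of 1.35 ± 0.33 and missed the threshold (edgeR adjusted p = 0.0501). It was called higher by edgeR with the size factors of DESeq2, by DESeq2, and by limma on log2(FPKM + 1), and in no other alternative. Because LOC113650706 was the most abundant, the array as a whole summed to 56.7, 60.9 and 48.6 FPKM in normoxia and 20.8, 32.7 and 38.3 FPKM in hypoxia, or -0.71 ± 0.24 (edgeR adjusted p = 0.106). No source used here says how the authors assigned reads that fit several copies, so a single copy's value is uncertain.

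Of the other IFI44-like arrays, 3 had differences below 0 throughout and 3 had both signs. The 5 tested genes on NW_020847805.1, within 180 kb, were all below 0 and summed to 22.6, 20.6 and 19.9 FPKM in normoxia and 12.2, 10.7 and 13.4 FPKM in hypoxia. This sum, a choice made after the data were seen, gave -0.65 ± 0.14 with an edgeR adjusted p of 0.0369. LOC113659111 and LOC113659112, which overlap on opposite strands of NW_020848034.1, summed to 5.08, 7.74 and 8.74 FPKM in normoxia and 2.23, 1.56 and 0.816 FPKM in hypoxia (-2.03 ± 0.48, edgeR adjusted p = 0.0469). LOC113646250 in the first sum and LOC113659112 in the second passed the filter only through normoxia, so both sums hold a gene that had to be lower in hypoxia and are given as a description. Both sums had separate groups, and both calls ended without any 1 of the 6 libraries, where the adjusted p was 0.0759 to 0.0976 and 0.0584 to 0.136.

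The longest array, 11 tested genes over 233 kb of NW_020848253.1, had 11 of 11 differences below 0, from -0.61 to -0.02, and none called by edgeR, with 1 at an unadjusted p under 0.05. Its most abundant gene, LOC113637784, shows how far pools can differ, with 35.8, 252 and 88.4 FPKM in normoxia and 40.5, 138 and 68.7 FPKM in hypoxia. Its difference of -0.44 ± 0.71 turned to 0.57 without normoxia 2. Of its neighbours, LOC113637792, LOC113637794 and LOC113637795, were highest in hypoxia 1, at 43.0, 38.5 and 85.5 FPKM, and lower in the other hypoxia pools, at 6.87 to 28.7 FPKM. The array summed to 280, 410 and 251 FPKM in normoxia and 271, 246 and 157 FPKM in hypoxia, a difference of -0.30 ± 0.29. All 37 IFI44-like genes together gave 527 ± 66.9 FPKM in normoxia and 374 ± 34.0 FPKM in hypoxia, or -0.32 ± 0.17 (edgeR adjusted p = 0.249).

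**Figure D4:**
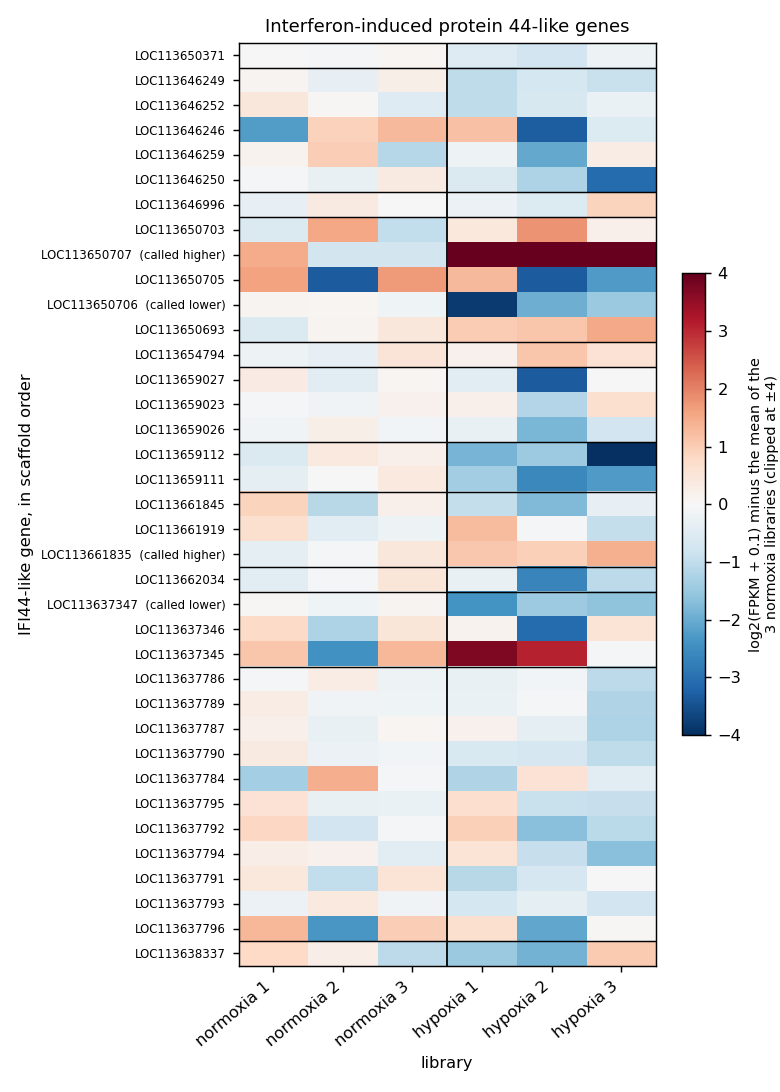
Level of the 37 IFI44-like genes in each library as log2(FPKM + 0.1) minus the mean of the 3 normoxia libraries, clipped at 4 in either direction (colour scale). Rows are genes in scaffold order with lines between scaffolds, and columns are libraries. LOC113650706 is lower and LOC113650707, which passed the filter only through hypoxia, higher in every hypoxia library, and many rows differ as much within a group as between groups.

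Of the 15 IFI44-like rows under the filter, some were far higher in 1 pool than in the others. LOC113661917 was at 0.597, 0.650 and 0.365 FPKM in normoxia and at 11.6, 2.33 and 0.529 FPKM in hypoxia. LOC113659025 reached 7.05 FPKM in hypoxia 3, against at most 0.399 FPKM in any other library. These rows were not tested, and they were picked here for their high single values.

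Other genes of the interferon pathway were taken from a list of 62 genes outside the family names, of which 58 were tested, 4 were called lower and none higher (2 had an unadjusted p under 0.05 on the higher side). This is 6.90% called, against 9.54% of all genes, and the median difference was -0.31 with 45 of 58 below 0. Type I interferon itself was near the limit of detection. Of 3 interferon a3-like rows, 1 had no count in any library and none reached 1 FPKM in any. The 2 interferon gamma genes were at 1.07 ± 0.557 and 1.58 ± 0.852 FPKM in normoxia and at 1.60 ± 0.312 and 1.60 ± 0.677 FPKM in hypoxia, with overlapping groups. Of the receptor genes, the 3 described as interferon alpha/beta receptor 1-like had separate groups on FPKM with hypoxia lower, as did 25.9% of all genes. Their differences were -1.21 to -0.34, none called. Interferon gamma receptor 1 had 0.07 ± 0.25.

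Downstream of the sensors, the TBK1 gene had 48.1, 48.2 and 46.1 FPKM in normoxia and 31.9, 30.3 and 31.6 FPKM in hypoxia (-0.44 ± 0.12, edgeR adjusted p = 0.0656). Values within each group lay close together, and the groups were far apart. The adaptor gene mavs, through which MDA5 signals, had 0.02 ± 0.20, and cgas, a DNA sensor, had 0.67 ± 0.22 (edgeR adjusted p = 0.0964).

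The called pathway genes were 2 of protein modification by ADP-ribose and ubiquitin and 2 inhibitors of cytokine signalling. The poly-ADP-ribose polymerase gene parp14 had 6.42, 8.03 and 8.72 FPKM in normoxia and 3.87, 4.32 and 4.55 FPKM in hypoxia (-0.70 ± 0.13, edgeR adjusted p = 0.0307). The DTX3L-like ubiquitin ligase gene LOC113636428 had 16.2, 20.9 and 22.4 FPKM in normoxia and 10.6, 12 and 12.4 FPKM in hypoxia (-0.60 ± 0.14, edgeR adjusted p = 0.0424). Both had separate groups, and both passed only without normoxia 1 (adjusted p = 0.04 for each) when 1 library was left out, against 0.067 to 0.0995 and 0.089 to 0.125 without each of the others.

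LOC113639654, which encodes suppressor of cytokine signaling 3, an inhibitor of JAK kinases, fell the most. It had 348, 307 and 329 FPKM in normoxia and 106, 90.8 and 50 FPKM in hypoxia, so the highest hypoxia pool was far below the lowest normoxia pool. The difference was -1.81 ± 0.32 (edgeR adjusted p = 0.0278). It passed without hypoxia 1 (adjusted p = 0.0471) or hypoxia 3 (0.0253), and not without the others (0.0517 to 0.0806). LOC113647758, described as phosphatase non-receptor type 6-like, a phosphatase of blood cells that dampens receptor signalling, had 87.4, 82.3 and 73.6 FPKM in normoxia and 46.6, 50.2 and 43.5 FPKM in hypoxia. Its groups were separate, with a difference of -0.63 ± 0.15 and an edgeR adjusted p of 0.0493, which rose to 0.0882 to 0.137 with any 1 library left out.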

How the data were processed

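Gill RNA of 6 pooled libraries, each from 3 fish, was analysed from the table of genes that the authors deposited. Per the labels' protocols, oligo-dT beads enriched the RNA before paired-end sequencing. Reads went through cutadapt 1.9 and HISAT, per the submitters' processing notes. No source used here names the counter, its strand and multi-mapping settings, or the genome build. The deposited table holds whole-number counts and FPKM for each library, per the file headers. Nor does any source say whether a count is a read or a pair, and a count of 0 is listed at an FPKM of 0.0001.

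Genes with at least 1 FPKM in at least 3 libraries were fitted with edgeR 4.0.16 (glmQLFit and glmQLFTest, TMM, two-sided, R 4.3.3), and p-values were adjusted by Benjamini-Hochberg over all 15312 genes with a threshold of 0.05. SE was computed from the log2 difference and the F statistic. The fit was tested on simulated data. Depth was 44762764 counts or more per library, so the spread between pools (common biological coefficient of variation 0.329) limits the precision. No 2 libraries of a group agreed within counting noise. Alternatives were DESeq2 1.42.0, limma 3.58.1 on log2(FPKM + 1) or log2(FPKM + 0.1), other scalings and filters, a length correction (loess span 0.5), a replicate block, single libraries left out, and sums over near copies. Near copies are genes with the same description apart from wording such as -like or isoform: 67 of the 87 genes have one, and 15 overlap another tested gene. Sums of IFI44-like genes by scaffold, and fits of sums without single libraries, were chosen after the data were seen.

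The members and all lists were chosen with earlier results of these data known. The genes named are those called, the 3 with the smallest p and the most abundant of each role, every sensor and IRF, and the called pathway genes. Some genes that this rule takes are not reported here. LOC113646250, LOC113650693, LOC113659111, LOC113659112, LOC113648971, LOC113648812, LOC113639950, LOC113639976, LOC113637792, LOC113637794, LOC113637795, LOC113658992, LOC113658993 and the uncalled pathway genes were named after their values were seen.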

Additional observations from a re-analysis of the deposited data

How the results depend on the processing

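The median log2 difference of the 87 genes stayed below 0 in every alternative run, from -0.46 to -0.16. Counts of calls did not hold as well. Against 3 lower and 2 higher, library totals gave 7 lower and 1 higher, DESeq2 14 lower and 3 higher, limma on log2(FPKM + 1) 11 lower and 3 higher, and limma on log2(FPKM + 0.1) 10 lower and 2 higher. EdgeR with the size factors of DESeq2 gave 3 lower and 3 higher. In this order they called 9.2%, 19.5%, 16.1%, 13.8% and 6.9% of the 87 genes. Of all genes the same fits called 7.68%, 21.8%, 8.92%, 7.73% and 9.29%. The members' share was thus above that of all genes with library totals and limma, and below it otherwise. A filter on a mean of at least 5 FPKM gave 7 lower and 0 higher of 56 members, and no filter 2 lower and 1 higher of 115. The length correction gave 3 lower and 1 higher of 87. With the first and last of these 12.5% and 4.6% of members were called. Of all genes these 3 fits called 14.7%, 3.7% and 7.24%. With near copies summed (30 features), or IFI44-like genes summed by scaffold (62 features), 0 were higher and 3 lower. All genes gave 9.7% and 9.58% called in these fits. With 1 library left out the members called were 0 to 2 lower and 0 to 1 higher, or at most 2.3%, against 0.862% to 5.96% of all genes. The same replicate number in both groups did not pair the samples, since the deviations correlated at -0.082, 0.051 and -0.097. A fit with the replicate number as a block called 0 of the 87 genes in either direction, 0 of the pathway list, and 122 higher and 120 lower of all genes. For ifih1 the block gave an edgeR adjusted p of 0.059, against 0.0198 without it and 2.94e-06 to 0.0714 over the other alternatives.

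Over all genes, 825 higher and 636 lower became 364 and 812 with library totals, 1792 and 1540 with DESeq2, 479 and 887 with limma on log2(FPKM + 1), 436 and 748 on log2(FPKM + 0.1), 541 and 321 without the filter, 752 and 357 with the length correction, and 68 to 490 and 64 to 422 with 1 library left out. The pathway list had 4 calls, and 7 with library totals, 12 with DESeq2, 10 at a mean of at least 5 FPKM, 2 without the filter, 1 with the length correction and 0 to 2 with 1 library left out. The causes of these shifts were not tested.

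Of 711 comparisons of named genes with alternatives, 578 kept their direction and side of the threshold, 66 lost and 29 gained a call, and 38 changed sign, none of these in a called gene. Among the genes taken by the naming rule, gained calls fell on LOC113648839, LOC113648840, LOC113648748, LOC113662499, LOC113653917, LOC113650723, LOC113662310 and irf2. DESeq2 called each of these lower. Members outside that rule gained calls too. LOC113650693 was called higher, and LOC113659111, LOC113659112, LOC113648971 and LOC113646249 lower, each in at least 1 alternative. With library totals the difference was -0.10 for LOC113661075, -0.09 for LOC113662183, -0.05 for dhx58, -0.09 for ifi35 and -0.15 for prkra. With limma on log2(FPKM + 1) it was -0.09 for LOC113661075, -0.07 for LOC113662183, -0.05 for dhx58, -0.08 for ifi35 and -0.12 for prkra, and on log2(FPKM + 0.1) -0.11, -0.08, -0.05, -0.08 and -0.14 in this order. At a mean of at least 5 FPKM it was -0.01 for LOC113661075 and -0.05 for prkra. For LOC113638821 it was 0.03 without the filter and 0.09 with the length correction, and for LOC113649312 it was 0.02 with the length correction. With 1 library left out the differences ran from -1.06 to 0.57 for LOC113637784, -0.25 to 0.13 for LOC113638821, -0.39 to 0.24 for LOC113649312, -0.30 to 0.02 for LOC113653598, -0.52 to 0.25 for LOC113653919, -0.25 to 0.50 for LOC113661075, -0.06 to 0.19 for LOC113662183, -0.18 to 0.30 for dhx58, -0.03 to 0.12 for prkra and -0.51 to 0.72 for rsad2. In groups of 3 pools the median SE of the 87 genes was 0.35, or 0.53 for the IFI44-like genes and 0.24 for the other members. With such errors, even differences above 1 on the log2 scale could be missed. Among the 87 genes the smallest difference called in the edgeR fit described above was that of ifih1, at -1.09 ± 0.17. Differences of 1.35 ± 0.33 (LOC113650693), -1.24 ± 0.32 (LOC113653917) and -1.92 ± 0.48 (LOC113659111) were not called.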
